A study of Homo sapiens with 8 samples.

Results

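The genes described here are 33 named genes of the NRF2 antioxidant response, glutathione and thioredoxin metabolism, ferroptosis and iron handling, in HepG2 cells after knockdown of NAT10. They were taken by symbol from the 86369 gene rows of the count matrix, and all 33 had a row. HepG2 is an established human hepatocellular carcinoma line grown in DMEM with serum. Every culture received siRNA by lipofection, either against NAT10 (siNAT10), an RNA cytidine acetyltransferase, or a negative control (siCtrl), and RNA was taken 2 days later for QuantSeq 3′ mRNA sequencing. There were 4 libraries per group. Replicates 1 and 2 of each group carried the batch label 1 and replicates 3 and 4 the batch label 2, and the labels do not say what a batch was. One cell line was used, so no value speaks for hepatocytes in general.

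NRF2, encoded by NFE2L2, is a transcription factor that KEAP1 holds in the cytoplasm and passes to degradation. Electrophiles and oxidants modify KEAP1, NRF2 accumulates and, with small MAF proteins, binds antioxidant response elements (AREs) near genes for detoxification, glutathione and thioredoxin. Ferroptosis is cell death by iron-dependent lipid peroxidation. It is opposed by GPX4, which uses glutathione to reduce lipid peroxides, and depends on ACSL4 and LPCAT3, which place polyunsaturated fatty acids in membranes. The liver also makes hepcidin, ferritin and transferrin, and so sets iron supply for the body.

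Library totals ran from 9731718 to 27977110 counts, and the 33 genes took 0.704% to 0.834% of them. Levels are counts relative to the library total after TMM scaling (CPM), and the order of values is always replicate 1, 2, 3, 4. NAT10 mRNA had 44.7, 39.2, 77.8 and 48.9 CPM in siCtrl and 13.1, 12.2, 20.1 and 22.3 CPM in siNAT10. Its log2 fold change was -1.66 (SE 0.14, adjusted p = 2.0e-05, edgeR quasi-likelihood test with batch as a term). The hepatocyte markers ALB (3232 to 4627 CPM), AFP (1265 to 1860 CPM) and APOA1 (653 to 941 CPM) were high. SERPINA1 ran from 1.70 to 13.2 CPM, and APOB from 0 to 0.328 CPM. The summed level of the 8 hepatocyte markers was 7356 to 7917 CPM in siCtrl and 5969 to 6587 CPM in siNAT10. ALB made up the largest part of this sum, so it does not describe each marker. The 4 immune markers summed to 1.65 to 3.90 CPM over all libraries, with PTPRC and CD3E at 0 throughout, CD68 at 1.55 to 2.81 CPM and CD14 at up to 2.00 CPM. The 4 fibroblast markers summed to 0.293 to 1.38 CPM, nearly all of it PDGFRB, with COL1A2 and DCN at 0, and the 3 endothelial markers to at most 0.796 CPM. In RNA from whole cultures, fewer cells expressing a gene and less RNA per cell cannot be told apart. Nothing in the labels says whether the replicates were separate cultures, so p-values measure only the spread between these libraries.

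None of the 31 members that could be tested passed an adjusted p of 0.05 between siNAT10 and siCtrl. By the same test 315 of 13840 genes passed, which is 2.28%, with 113 higher (0.816%) and 202 lower (1.46%). Under scaling by library size alone the split was 138 higher and 149 lower, with 0 members called. At an unadjusted p under 0.05 there were 5 members, against 15.7% of all tested genes. These were SLC7A11, GCLM, TXN and HMOX1, with higher fitted values in siNAT10, and GSS, with a lower one. DESeq2 also called 0 members and gave 5 at an unadjusted p under 0.05.

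The members' fitted differences were small and lay on both sides of 0. The fit was higher in siNAT10 for 19 members and lower for 12, with a median log2 difference of 0.07 against -0.0024 over all tested genes. The median size regardless of sign was 0.13, against 0.16 for all tested genes. The 95% interval of the difference lay within 1.5-fold in either direction for 27 of 31 members and within 2-fold for 31 of 31. Of all 13840 tested genes, 8333 lay within 1.5-fold and 11732 within 2-fold. The 4 whose intervals reached 1.5-fold were SQSTM1, SLC7A11, GCLM and HAMP. The interval was -0.18 to 0.34 for NFE2L2, -0.15 to 0.26 for NQO1 and -0.37 to 0.15 for GPX4 on the log2 scale.

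**Figure D1:**
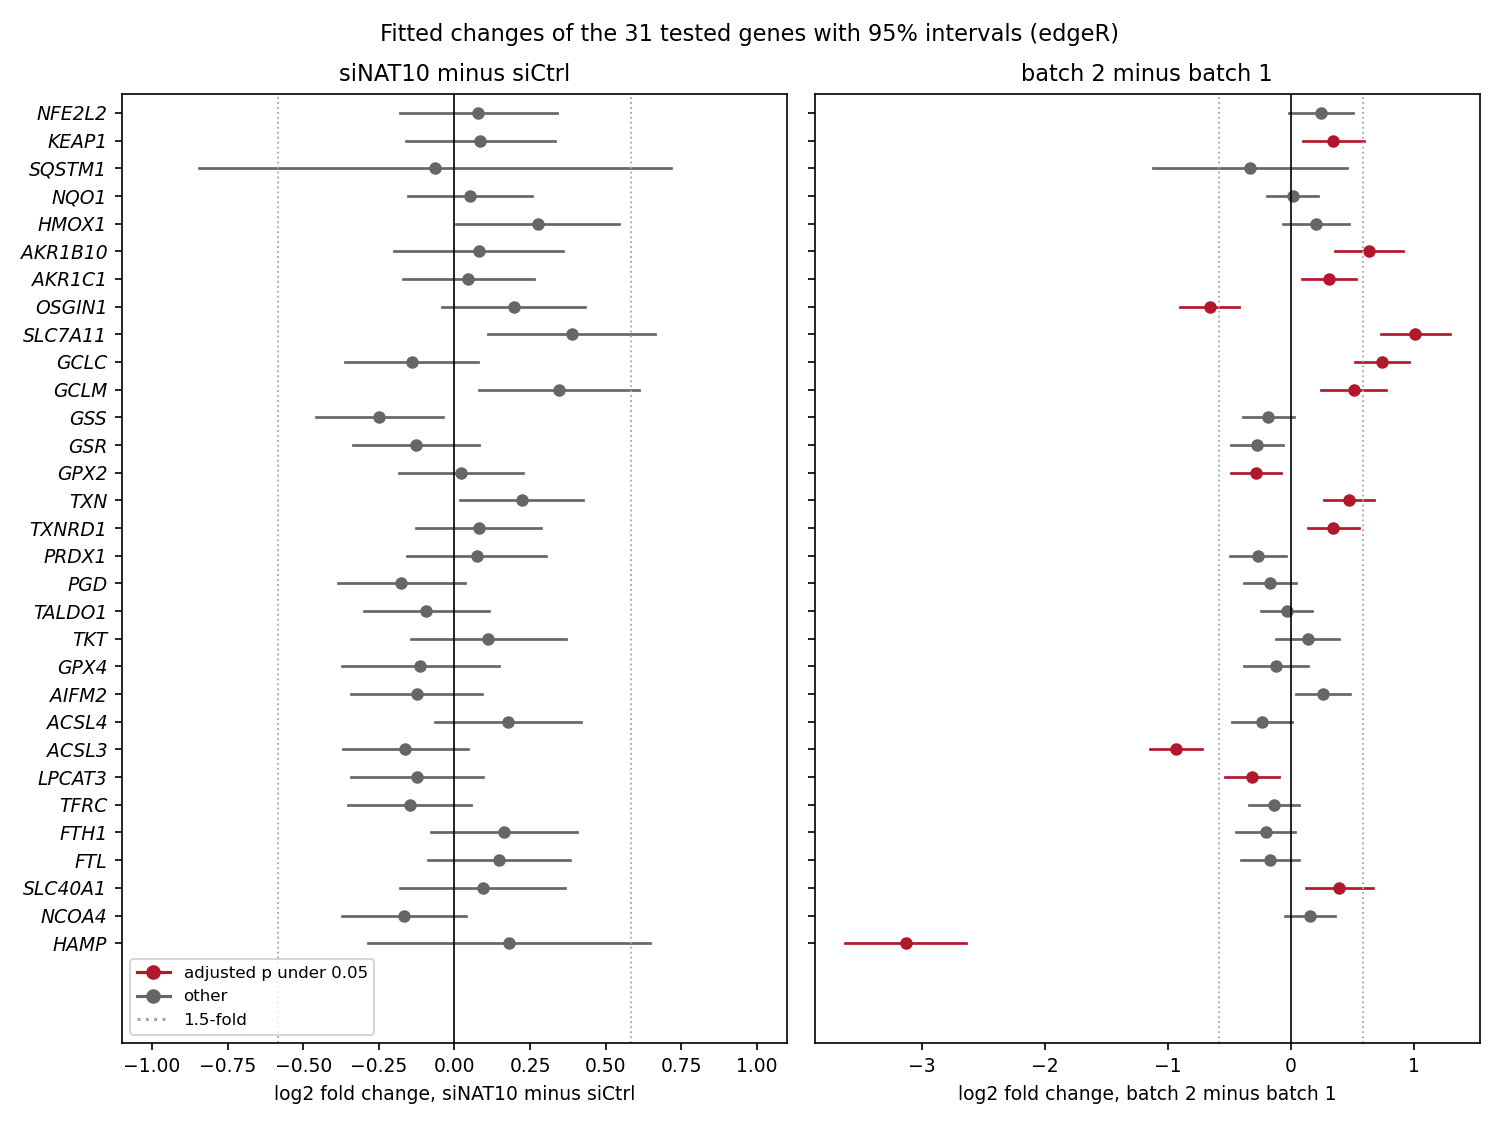
Fitted log2 fold change (x axis) with its 95% interval for each of the 31 tested genes (y axis), for siNAT10 minus siCtrl on the left and batch 2 minus batch 1 on the right. Dotted lines mark 1.5-fold and red marks an adjusted p under 0.05. The left panel holds 0 red points and the right panel 14, with HAMP at -3.13.

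The rows of SRXN1 and ABCC1 cannot be judged, and that of SQSTM1 only within wide limits. SRXN1, which encodes sulfiredoxin, had 0 counts in all 8 libraries, and 3 counts would correspond to 0.104 to 0.293 CPM. ABCC1, an exporter of glutathione conjugates, had 1 to 13 counts per library, at most 0.939 CPM, and did not pass the low-count filter. SQSTM1, which encodes the autophagy receptor p62 that binds KEAP1, had 51, 18, 26 and 10 counts in siCtrl and 20, 38, 8 and 18 in siNAT10. It entered the test, but its interval of -0.84 to 0.72 on the log2 scale holds both a rise and a fall of more than 1.5-fold. The remaining 30 members had at least 10 CPM in every library.

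**Figure D2:**
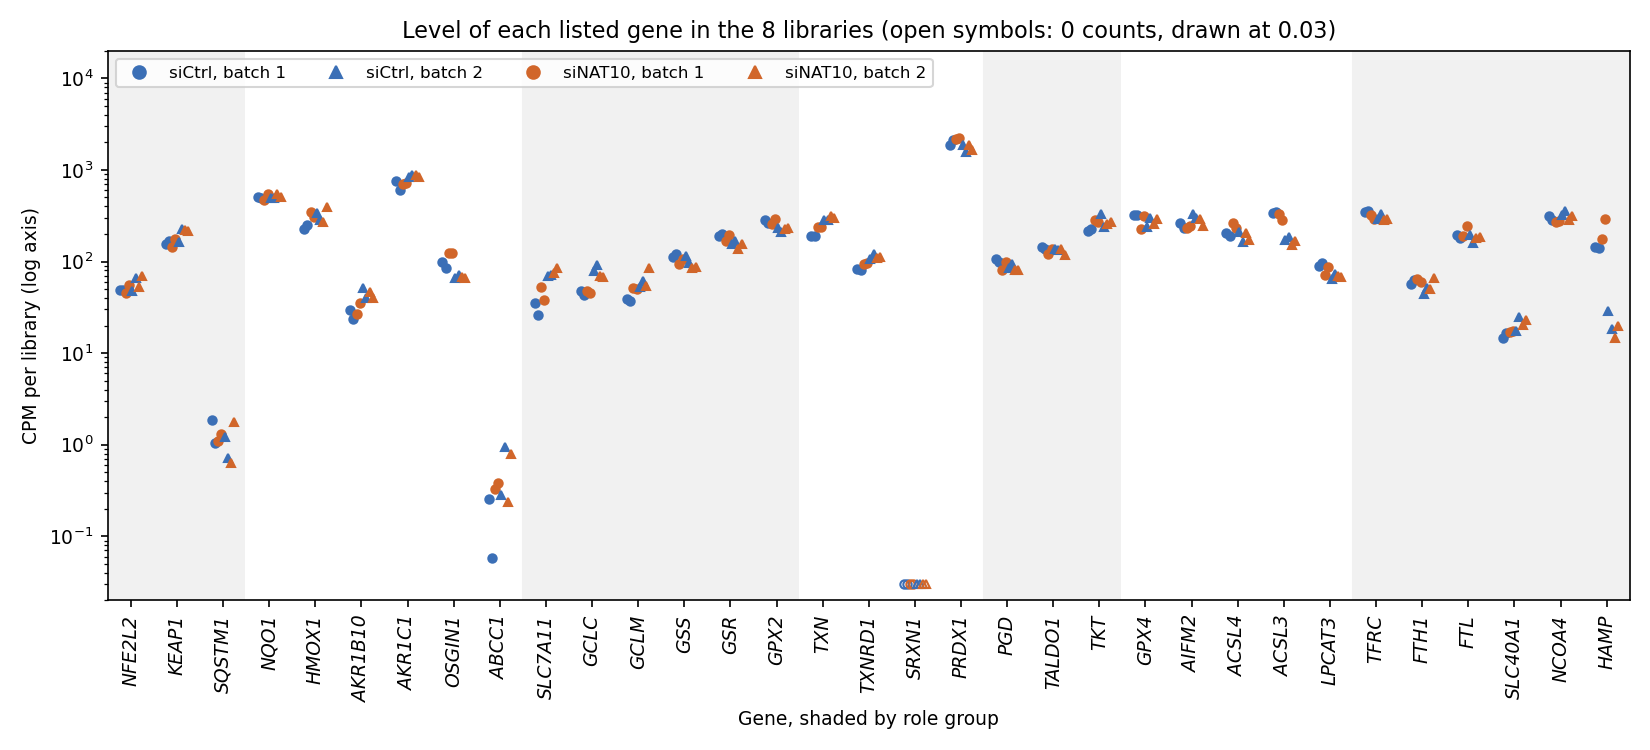
CPM of each of the 33 genes (log y axis) in the 8 libraries, with siCtrl in blue, siNAT10 in orange, circles for batch 1 and triangles for batch 2. Open symbols mark 0 counts. SRXN1 is at 0 throughout, ABCC1 and SQSTM1 lie under 2 CPM, and HAMP has all its circles above all its triangles.

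AREs are the letters through which NRF2 is known to act, so the promoter windows that hold them are shown before the gene values. RefSeq promoter windows of 300 bases (250 before a gene's start and 50 after, GRCh38.p14) were found for 25 of the 33 genes. The others were SLC7A11, ABCC1, GSR, GSS, PRDX1, FTH1, HMOX1 and AKR1B10. The ARE core TGACNNNGC, read on both strands, was present in windows of 7 genes, PGD, GCLM, NCOA4, AIFM2, TXNRD1, GPX2 and KEAP1, and in 13.3% of all 35116 windows. The longer TGACTCAGC, which contains that core, was in AIFM2 alone among the members and in 0.561% of all windows. A gene can have several windows, so counts of genes and shares of windows are unlike units and cannot be set against each other. Stretches before the start site follow, along each gene's strand from 5′ to 3′, with the match in capitals (the match in NCOA4 lies after its start site, and the first TXNRD1 stretch runs on to the first base of the transcript).
GCLM, chr1:93909431-93909680, minus strand: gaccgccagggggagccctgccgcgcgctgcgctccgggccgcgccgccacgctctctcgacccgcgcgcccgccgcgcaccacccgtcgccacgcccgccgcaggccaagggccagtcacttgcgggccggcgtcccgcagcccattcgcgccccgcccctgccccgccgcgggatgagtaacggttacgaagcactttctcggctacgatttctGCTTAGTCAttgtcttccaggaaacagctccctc
KEAP1, chr19:10502774-10502845, minus strand: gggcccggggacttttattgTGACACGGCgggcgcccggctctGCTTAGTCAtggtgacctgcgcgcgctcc
TXNRD1, chr12:104215660-104215779, plus strand: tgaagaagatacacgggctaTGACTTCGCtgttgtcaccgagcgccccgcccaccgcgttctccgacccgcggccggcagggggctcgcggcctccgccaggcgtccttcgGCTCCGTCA
TXNRD1, a further start, chr12:104286910-104286958, plus strand: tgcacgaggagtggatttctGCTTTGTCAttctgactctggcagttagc
GPX2, chr14:64942839-64942887, minus strand: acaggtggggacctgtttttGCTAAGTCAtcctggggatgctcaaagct
AIFM2, chr10:70132826-70132867, minus strand: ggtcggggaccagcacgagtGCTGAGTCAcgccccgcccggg
PGD, chr1:10398843-10398891, plus strand: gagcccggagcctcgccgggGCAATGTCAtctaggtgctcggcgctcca
KEAP1 and one TXNRD1 window each hold 2 matches, one on each strand. A match is a description of the letters in the window only. Letters outside the windows were not searched, so a gene without a match here may still hold an ARE elsewhere. None of the 7 genes passed the test between siNAT10 and siCtrl, and between batches, where 25.3% of all tested genes passed, 4 of them did, GCLM, TXNRD1 and KEAP1 higher and GPX2 lower in batch 2.

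None of the 3 NRF2 sensor genes passed the test between the siRNAs. KEAP1 (ENSG00000079999, chromosome 19, 10486125 to 10503558, GRCh38) had 156, 169, 161 and 224 CPM in siCtrl and 145, 177, 222 and 217 CPM in siNAT10. The groups overlapped in both batches. Its log2 difference was 0.09 (SE 0.12, adjusted p = 0.78), and that of NFE2L2, at 45.6 to 70.0 CPM, was 0.08 (SE 0.12, adjusted p = 0.82). The outermost annotated 3′ end of NFE2L2 is overlapped on the other strand by HNRNPA3 (mean 162 CPM). Whether the end in use lies there was not tested. Whether counting used strand is not given in the sources used here, so any reads from that overlap cannot be told apart. KEAP1 was higher in batch 2, with 162 ± 14.1 CPM (SD, n = 4) in batch 1 and 206 ± 30.0 CPM in batch 2 (log2 0.34, SE 0.12, adjusted p = 0.040).

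Of the 6 detoxification targets, 5 were tested and 0 passed between the siRNAs, with a median log2 difference of 0.08. All 5 fits were higher in siNAT10, as were 6872 of all 13840 tested genes and 10 of 21 other NRF2 targets from the further lists. In batch 2 alone the fits of AKR1B10 (-0.066) and OSGIN1 (-0.038) were lower. The largest of the 5 was that of HMOX1, which encodes heme oxygenase-1. HMOX1 (ENSG00000100292, chromosome 22, 35380361 to 35394214) had 225, 251, 338 and 286 CPM in siCtrl and 346, 309, 273 and 389.5 CPM in siNAT10. Both siNAT10 libraries lay above both siCtrl libraries in batch 1, and the groups overlapped in batch 2. Its log2 difference was 0.27 (SE 0.13, unadjusted p = 0.046, adjusted p = 0.31). NQO1, the quinone reductase often used as the NRF2 readout, ran from 470.0 to 542 CPM over the 8 libraries, with a log2 difference of 0.05 (SE 0.10, adjusted p = 0.85).

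OSGIN1, an oxidative stress-induced growth inhibitor, differed by batch. It had 99.2 and 85.4 CPM in siCtrl and 123 and 125 CPM in siNAT10 of batch 1, and 65.3 and 71.8 CPM in siCtrl and 67.1 and 66.0 CPM in siNAT10 of batch 2. Every batch 1 library was above every batch 2 library (log2 -0.66 for batch 2, 1.58-fold lower, adjusted p = 0.00054). The aldo-keto reductases went the other way between batches. AKR1B10 had 28.8 ± 5.15 CPM in batch 1 and 44.6 ± 5.47 CPM in batch 2 (SD, n = 4, 1.55-fold, adjusted p = 0.0025), and AKR1C1 had 698 ± 62.2 and 864 ± 32.4 CPM (log2 0.31, adjusted p = 0.037). Between the siRNAs the AKR1C1 row had a log2 difference of 0.05 (SE 0.10, adjusted p = 0.88), with an interval of -0.17 to 0.26. It held 65.8% of the counts of the 4 AKR1C rows. With these rows summed the siNAT10 difference was -0.05. That sum takes in AKR1C3, a related gene at 301 to 479 CPM with a difference of -0.25 (edgeR, unadjusted p = 0.021, adjusted p = 0.21). How far reads were split between these rows was not tested.

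Glutathione synthesis held 3 of the 5 members with an unadjusted p under 0.05. SLC7A11 (ENSG00000151012, chromosome 4, 138164097 to 138242349), the cystine importer that feeds glutathione synthesis, had 34.9, 26.1, 69.2 and 71.1 CPM in siCtrl and 53.2, 38.3, 75.8 and 85.7 CPM in siNAT10. Within each batch both siNAT10 libraries were above both siCtrl libraries, while over all 8 libraries the groups overlapped. The log2 difference was 0.39 (SE 0.13, unadjusted p = 0.0090, adjusted p = 0.14), the smallest adjusted p of any member. It was 0.58 in batch 1 alone and 0.21 in batch 2 alone, and its adjusted p ranged from 0.054 to 0.89 over the 17 alternative settings.

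GCLM (ENSG00000023909, chromosome 1, 93885199 to 93909456), the regulatory subunit of glutamate-cysteine ligase, had 39.4, 36.9, 52.7 and 60.7 CPM in siCtrl and 51.1, 50.0, 54.1 and 84.5 CPM in siNAT10. The groups were apart in batch 1 and overlapped in batch 2, where siNAT10 replicate 4 was the highest of all 8. Its log2 difference was 0.35 (SE 0.12, unadjusted p = 0.013, adjusted p = 0.18). Without siNAT10 replicate 3 it was 0.48 and passed with an adjusted p of 0.046 (edgeR). GCLC, the catalytic subunit of the same enzyme, had a log2 difference of -0.14 (SE 0.10, adjusted p = 0.56), so the fits of these partners lay on opposite sides of 0 and neither passed.

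GSS (ENSG00000100983, chromosome 20, 34928432 to 34956027), glutathione synthetase, had 113, 121, 114 and 95.2 CPM in siCtrl and 94.0, 106, 85.9 and 87.3 CPM in siNAT10. Both siNAT10 libraries lay below both siCtrl libraries in each batch. The log2 difference was -0.25 (SE 0.10, unadjusted p = 0.023, adjusted p = 0.22). GSR, which recycles oxidised glutathione, ran from 137 to 198 CPM with a log2 difference of -0.13 (SE 0.10, adjusted p = 0.59), and GPX2, a glutathione peroxidase, from 210.2 to 292 CPM with 0.02 (SE 0.10, adjusted p = 0.94).

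The cystine importer and both subunits of glutamate-cysteine ligase were higher in batch 2. GCLC had 47.8 and 43.5 CPM in siCtrl and 47.1 and 45.2 CPM in siNAT10 of batch 1, against 78.8 and 90.9 CPM and 70.0 and 68.2 CPM in batch 2. All 4 libraries of batch 2 were above all 4 of batch 1 (1.67-fold, adjusted p = 0.00012). SLC7A11 had 38.1 ± 11.3 CPM (SD, n = 4) in batch 1 and 75.5 ± 7.40 CPM in batch 2, a 2.01-fold difference (log2 1.01, SE 0.13, adjusted p = 6.1e-05). GCLM was 1.42-fold higher in batch 2 (adjusted p = 0.0072). GPX2 was lower in batch 2 (log2 -0.29, adjusted p = 0.038).

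**Figure D3:**
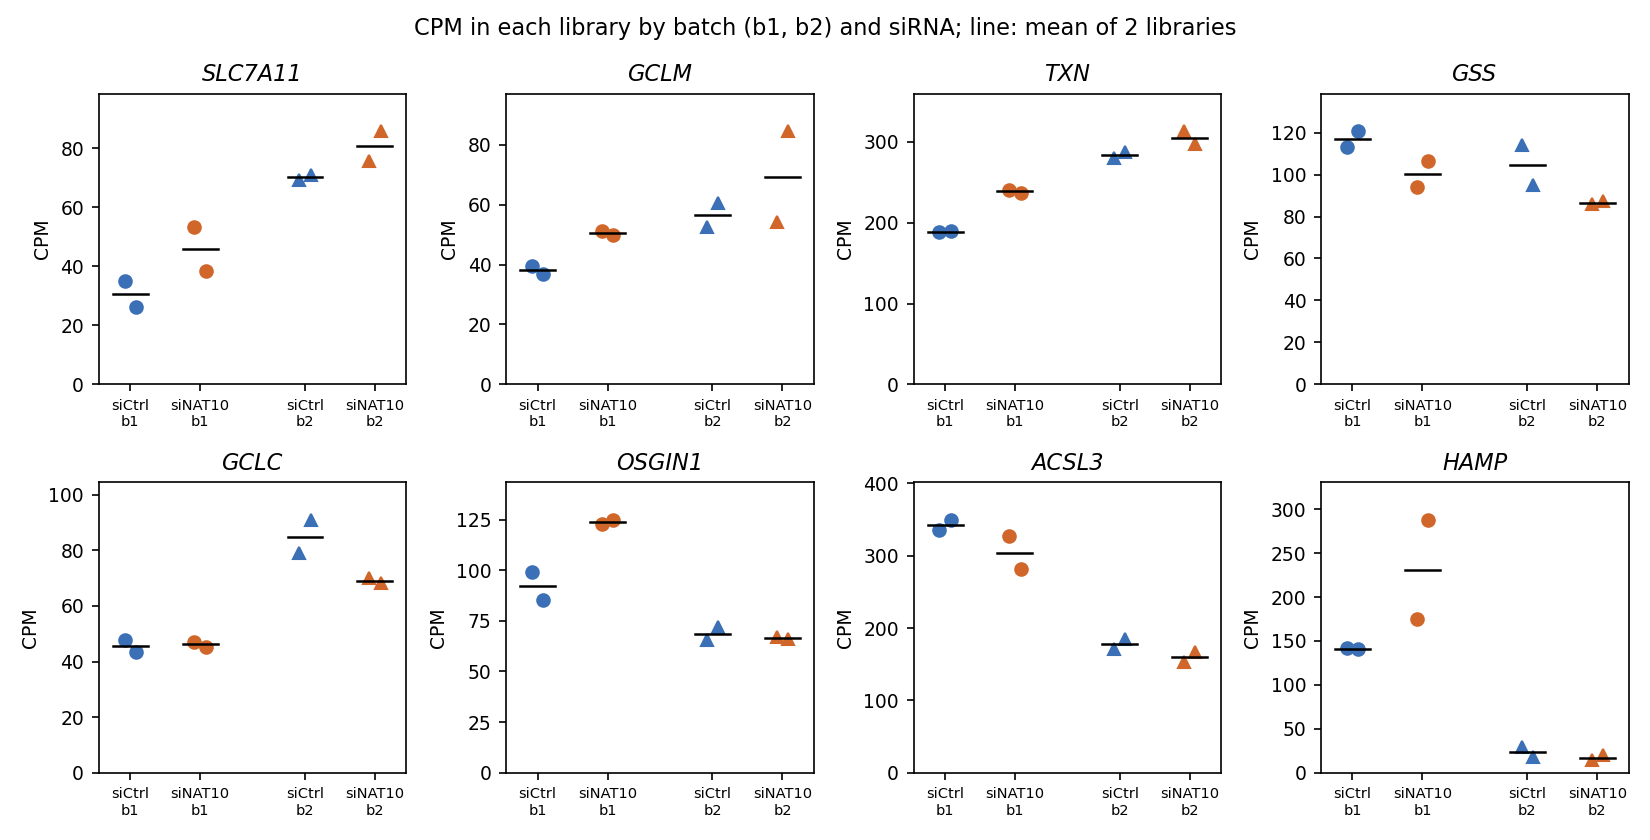
CPM (y axis, from 0) of 8 genes in each library, by batch (b1, b2) and siRNA, with siCtrl in blue, siNAT10 in orange and a line at the mean of 2 libraries. SLC7A11 and TXN have both siNAT10 points above both siCtrl points in each batch and GSS has both below. SLC7A11 and GCLC are higher, and OSGIN1, ACSL3 and HAMP lower, in batch 2.

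In the thioredoxin system 3 of 4 genes were tested and 0 passed between the siRNAs, with a median log2 difference of 0.08. TXN (ENSG00000136810, chromosome 9, 110243810 to 110256507), which encodes thioredoxin, had 188, 189, 280.4 and 287 CPM in siCtrl and 240.5, 237, 313 and 298 CPM in siNAT10. Both siNAT10 libraries were above both siCtrl libraries in each batch, while the groups overlapped over all 8. The log2 difference was 0.22 (SE 0.10, unadjusted p = 0.034, adjusted p = 0.27). TXNRD1, thioredoxin reductase, had a difference of 0.08 (SE 0.10, adjusted p = 0.75), and PRDX1, a peroxiredoxin at 1578 to 2241 CPM, had 0.07 (SE 0.11, adjusted p = 0.80). TXN was 1.39-fold higher in batch 2 (adjusted p = 0.0021) and TXNRD1 was higher there too (log2 0.34, adjusted p = 0.017).

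None of the 3 pentose phosphate enzymes, which supply NADPH for these reductases, passed between the siRNAs. PGD (ENSG00000142657, chromosome 1, 10398592 to 10420511), 6-phosphogluconate dehydrogenase, had 106, 99.9, 85.6 and 93.9 CPM in siCtrl and 80.2, 98.7, 81.3 and 80.6 CPM in siNAT10. Both siNAT10 libraries were below both siCtrl libraries in each batch, and in batch 1 the gap between 98.7 and 99.9 CPM was narrow. The log2 difference was -0.18 (SE 0.10, adjusted p = 0.42). TALDO1, transaldolase, and TKT, transketolase, had differences of -0.09 (SE 0.10, adjusted p = 0.71) and 0.11 (SE 0.12, adjusted p = 0.72). None of the 3 passed between batches.

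Among the ferroptosis genes of lipid peroxidation, 0 of 5 passed between the siRNAs, with 4 fits lower and 1 higher and a median log2 difference of -0.12. GPX4, at 225 to 321 CPM, had a difference of -0.11 (SE 0.12, adjusted p = 0.72). AIFM2, which encodes the coenzyme Q reductase FSP1, had -0.12 (SE 0.10, adjusted p = 0.61), and LPCAT3 also had -0.12 (SE 0.10, adjusted p = 0.62). The outermost annotated 3′ ends of AIFM2 and LPCAT3 are overlapped on the other strand by MACROH2A2 (mean 62.3 CPM) and EMG1 (mean 138 CPM). Without the strand setting any reads from these overlaps cannot be told apart, and whether the ends in use lie there was not tested.

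ACSL4 (ENSG00000068366, chromosome X, 109624244 to 109733403) had 203, 192, 209 and 162 CPM in siCtrl and 262, 232, 205 and 173 CPM in siNAT10. The groups were apart in batch 1 and overlapped in batch 2, and the log2 difference was 0.18 (SE 0.11, adjusted p = 0.49). ACSL3 (ENSG00000123983, chromosome 2, 222860942 to 222944639), which activates monounsaturated fatty acids, had 335, 349, 171 and 185 CPM in siCtrl and 328, 281, 153 and 167 CPM in siNAT10. Its siNAT10 libraries were below its siCtrl libraries in each batch (log2 -0.16, SE 0.10, adjusted p = 0.45). The batch difference was far larger, with 323 ± 29.6 CPM (SD, n = 4) in batch 1 and 169 ± 13.4 CPM in batch 2, 1.91-fold lower (adjusted p = 8.9e-06). LPCAT3 was also lower in batch 2 (log2 -0.32, adjusted p = 0.034).

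Of the 6 iron genes, 0 passed between the siRNAs, with a median log2 difference of 0.12. TFRC (ENSG00000072274, chromosome 3, 196012511 to 196082153), the transferrin receptor that takes up iron, had 348, 352, 291 and 326 CPM in siCtrl and 323, 292, 285 and 288 CPM in siNAT10. NCOA4 (ENSG00000266412, chromosome 10, 46005088 to 46030623), the receptor that carries ferritin to autophagy, had 314, 284, 324 and 357 CPM in siCtrl and 272, 274, 281 and 311 CPM in siNAT10. For both genes each siNAT10 library was below each siCtrl library of its batch. The log2 differences were -0.15 (SE 0.10, adjusted p = 0.50) for TFRC and -0.17 (SE 0.10, adjusted p = 0.44) for NCOA4. The ferritin chains FTH1 and FTL had 0.16 (SE 0.11, adjusted p = 0.53) and 0.15 (SE 0.11, adjusted p = 0.57), and the iron exporter SLC40A1, at 18.4 ± 4.55 CPM in siCtrl (SD, n = 4), had 0.09 (SE 0.13, adjusted p = 0.79). SLC40A1 was higher in batch 2 (log2 0.39, adjusted p = 0.035).

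HAMP (ENSG00000105697, chromosome 19, 35280716 to 35285143) encodes hepcidin, the liver hormone that removes ferroportin from cell surfaces. Its transcription is known to respond to BMP and to IL-6 through letters in the proximal promoter. These letters are shown as a description only. HAMP had the largest batch difference of any member, and the part of BMP or IL-6 signals in it was not tested. The stretch before the RefSeq start site is given 5′ to 3′ with the BMP element GGCGCC and the STAT element TTCNNNGAA in capitals.
HAMP, chr19:35282278-35282527, plus strand: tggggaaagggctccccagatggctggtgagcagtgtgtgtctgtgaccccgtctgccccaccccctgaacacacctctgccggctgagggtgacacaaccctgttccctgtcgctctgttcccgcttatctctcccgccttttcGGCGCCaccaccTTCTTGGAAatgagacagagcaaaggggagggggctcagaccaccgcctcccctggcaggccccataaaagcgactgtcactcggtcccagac
GGCGCC starts at position -105 from the start site and TTCTTGGAA at -93. Read on both strands, GGCGCC was in windows of 8 of the 25 genes and in 19.2% of all windows, and TTCNNNGAA in GCLM and HAMP and in 7.66% of all windows. Genes and windows are again unlike units, since a gene can have several windows.

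HAMP had 142 and 140.4 CPM in siCtrl and 175 and 288 CPM in siNAT10 of batch 1. In batch 2 it had 29.1 and 18.4 CPM in siCtrl and 14.7 and 19.8 CPM in siNAT10. The lowest batch 1 library was thus above the highest of batch 2, with 186 ± 69.5 CPM (SD, n = 4) against 20.5 ± 6.12 CPM. The difference was 8.77-fold (log2 -3.13 for batch 2, SE 0.23, adjusted p = 5.9e-07), and over the 13 alternative settings it lay between -3.42 and -2.87.

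Between the siRNAs HAMP did not pass, with a log2 difference of 0.18 (SE 0.22, adjusted p = 0.75) and an interval of -0.29 to 0.65. In batch 1 alone it was 0.71 and passed (adjusted p = 0.041), and in batch 2 alone it was -0.47 (adjusted p = 0.72). Without siNAT10 replicate 2 it was -0.11. The difference between batches in the siRNA effect, tested as an interaction, was -1.19 (unadjusted p = 0.0031, adjusted p = 0.9996). With no filter on low counts that interaction passed (log2 -1.22, adjusted p = 0.0070).

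For the siRNA by batch interaction 0 of 31 members passed, as did 0% of all tested genes. At an unadjusted p under 0.05 there were 2 members, HAMP and OSGIN1, against 3.04% of all tested genes. OSGIN1 had a log2 difference of 0.42 in batch 1 and -0.04 in batch 2 (interaction -0.46, unadjusted p = 0.038, adjusted p = 0.9996). DESeq2 called 0 members for the interaction.

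Groups that did not overlap within either batch, on the same side in both, were found for 7 of 31 members, against 14.7% of all tested genes. SLC7A11 and TXN were higher and GSS, PGD, ACSL3, TFRC and NCOA4 lower in siNAT10.  None passed the adjusted test.

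Between batches 14 of 31 members passed, or 45.2%, against 25.3% of all tested genes. The members too were chosen with earlier results known, so these shares are a description only. Of the 14, 9 were higher in batch 2 (13% of all genes were) and 5 lower (12.2% of all genes). Scaled by library size alone, 13 passed, 7 higher and 6 lower. The 14 called with TMM scaling comprised 4 of 6 glutathione genes, 3 of 5 detoxification targets and 2 of 3 thioredoxin genes. They also held 2 of 5 ferroptosis genes, 2 of 6 iron genes, 1 of 3 sensor genes and 0 of 3 NADPH genes. A difference of at least 1.5-fold was fitted for 6, namely HAMP, SLC7A11, ACSL3, GCLC, OSGIN1 and AKR1B10. The share of all tested genes past that fold was not counted, so this number has no reference. In 11 members the ranges of the batches were apart, 7 higher and 4 lower in batch 2, against 22.7% of all tested genes.

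The batch count rested in part on single libraries. Dropping siCtrl replicate 1 left 9 calls, as did dropping siCtrl replicate 2 and dropping siNAT10 replicate 2, and 8 were left when siCtrl replicate 4 was dropped. HAMP, SLC7A11, GCLC, GCLM, AKR1B10, TXN, OSGIN1 and ACSL3 passed under every alternative run, while KEAP1, AKR1C1, TXNRD1, GPX2, LPCAT3 and SLC40A1 each missed it under at least 1. Depth differed too, at 17347226 to 27977110 counts in batch 1 and 9731718 to 22512520 in batch 2. The liver transcription factor HNF4A ran from 242 to 300.5 CPM in batch 1 and from 418 to 476 CPM in batch 2. The part of depth or of HNF4A in the members' batch differences was not tested.

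Further genes of the same pathways were read from lists of 136 genes, of which 109 were tested. Between the siRNAs 11 passed, or 10.1%, with 10 lower and 1 higher in siNAT10. Of all tested genes 2.28% passed, 1.46% lower and 0.816% higher. The lists were chosen with earlier results of these data known, so these shares are a description and not a test of the pathways. The median log2 difference of the 109 genes was -0.036. The 27 that were not tested were under 1 CPM in every library, and 13 of them were at 0. The counts were 5 of 21 further iron genes, 3 of 23 genes of glutathione use, 1 of 21 other NRF2 targets, 1 of 14 of the thioredoxin system, 1 of 20 of ferroptosis and 0 of 10 NRF2 partners. Each of the 11 had both siNAT10 libraries beyond both siCtrl libraries in each batch, on the same side, as did 14.7% of all tested genes. The 11 were called from the same 8 libraries, so this separation is not separate support.

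The iron genes that fell included CP, the ferroxidase ceruloplasmin that liver secretes. CP had 71.8, 57.8, 56.7 and 63.2 CPM in siCtrl and 35.4, 28.3, 26.2 and 36.5 CPM in siNAT10, and every siNAT10 library was below every siCtrl library (log2 -0.99, SE 0.13, adjusted p = 0.00057). The outermost annotated 3′ end of CP is overlapped on the other strand by HPS3 (mean 9.14 CPM). Without the strand setting any reads from that overlap cannot be told apart. TF, transferrin, fell from 2086 ± 250 CPM (SD, n = 4) to 1474 ± 114 CPM (log2 -0.49, SE 0.11, adjusted p = 0.023). The outermost annotated 3′ end of TF overlaps SRPRB on the same strand (mean 94.6 CPM), so its row may hold some reads of SRPRB. Whether the end in use lies there was not tested. TFR2, a transferrin sensor of hepatocytes that acts upstream of hepcidin, fell by 0.67 on the log2 scale (SE 0.14, adjusted p = 0.023). SLC39A14, an importer of iron and zinc, fell from 138 ± 6.81 to 101 ± 6.51 CPM (SD, n = 4, adjusted p = 0.022). IREB2, which encodes the iron sensor IRP2 that binds ferritin and TFRC mRNAs, rose from 72.9 ± 5.45 to 97.4 ± 6.93 CPM (SD, n = 4, log2 0.42, adjusted p = 0.028). Of the hepatocyte markers, none passed the test, but the values of some differed beside these genes. The mean of ALB was 4411 ± 175 CPM (SD, n = 4) in siCtrl libraries against 3422 ± 198 CPM with siNAT10 (log2 -0.37, adjusted p = 0.072), AFP had a log2 difference of -0.28 (adjusted p = 0.19) and TTR of -0.30 (adjusted p = 0.17). In all 3 each siNAT10 library was below each siCtrl library of its batch, whereas FGB had a difference of 0.37 (adjusted p = 0.17). APOA1 had a difference of -0.0083 (adjusted p = 0.99), HNF4A of 0.09 (adjusted p = 0.74) and SERPINA1 of -0.46 (adjusted p = 0.61). The part of these markers in the differences of CP, TF, GPX3 and the other pathway genes was not tested. The members FTH1, FTL and TFRC had the values given above, none of which passed.

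Among genes that use glutathione, GPX3, the secreted glutathione peroxidase, fell from 46.2 ± 5.64 to 30.7 ± 4.70 CPM (SD, n = 4, log2 -0.59, SE 0.11, adjusted p = 0.011). GSTZ1, which degrades tyrosine products, fell from 60.0 ± 6.65 to 36.1 ± 7.20 CPM (SD, n = 4, log2 -0.73, adjusted p = 0.011), and GSTO1, a glutathione transferase, fell by 0.43 on the log2 scale (adjusted p = 0.044). BLVRB, a biliverdin reductase, fell by 0.56 (SE 0.10, adjusted p = 0.011). It was the only one of the 21 other NRF2 targets that passed. TXNIP, which binds and inhibits thioredoxin, fell from 139 ± 19.2 to 89.8 ± 16.3 CPM (SD, n = 4, log2 -0.63, adjusted p = 0.022). SCD, the desaturase that makes monounsaturated fatty acids, fell by 0.47 (SE 0.11, adjusted p = 0.034). Among NRF2 partners the smallest p was that of BTRC, a ubiquitin ligase adaptor, with a log2 difference of 0.29 (adjusted p = 0.22).

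**Figure D4:**
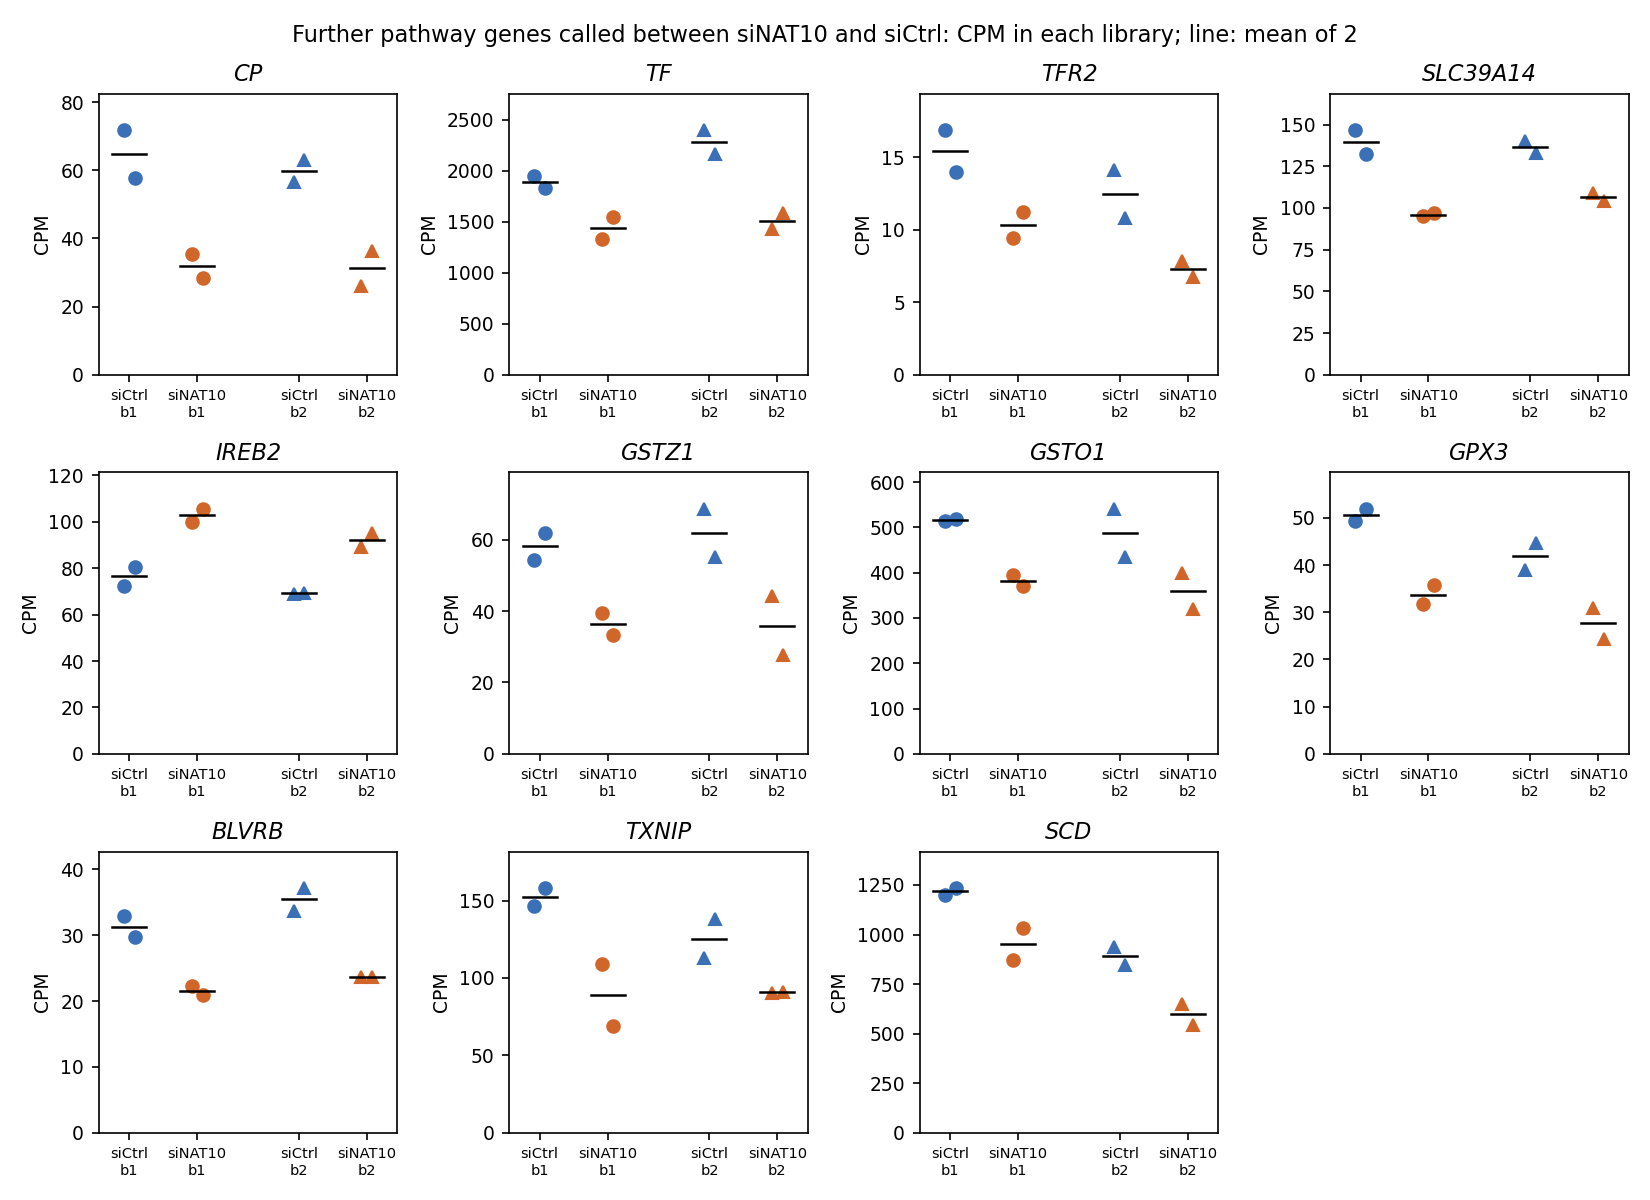
CPM (y axis, from 0) of the 11 further pathway genes that passed the test between siNAT10 (orange) and siCtrl (blue), in each library of batch 1 (b1) and batch 2 (b2), with a line at the mean of 2 libraries. In every panel both siNAT10 points lie beyond both siCtrl points within each batch, above them for IREB2 and below for the other 10.

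These calls depended on single libraries to different degrees. CP and GPX3 passed in 8 of 8 fits that left out a library, GSTZ1 in 7, BLVRB in 6, SLC39A14 in 4, TXNIP, TF and TFR2 in 3, IREB2 in 2, GSTO1 in 1 and SCD in 0. The count of 11 dropped to 2 when siNAT10 replicate 2 was left out and to 5 when either siNAT10 replicate 1 or 3 was. Leaving out siCtrl replicate 1, 2 or 3 gave 3, 6 and 7 calls. It was 4 in batch 1 alone and 0 in batch 2 alone, where 17 had an unadjusted p under 0.05. All 11 kept their direction under every alternative run.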

How the data were processed

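Raw counts per gene were deposited by the authors, with 8 libraries (4 siCtrl, 4 siNAT10, 2 of each per batch). The matrix is called SLAM in the labels, which describe no RNA labelling step. Its values are whole numbers with a different total per library and were read as raw counts. Per the submitters' processing notes, reads were trimmed with Trim Galore 0.6.10 and cutadapt 3.5, aligned with STAR 2.7.9a to GRCh38 and counted with featureCounts. Which annotation release was used, whether strand was used in counting and how multimapping reads were handled are not given in the sources used here, and the series text and the sample protocols name different orientations of the QuantSeq kit. Reads of paralogs and pseudogenes may thus be split between rows. In 3′ sequencing each transcript gives reads near its end only, so a row can be near 0 where the annotated end is not the one used.

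Symbols and coordinates came from GENCODE 44, which held 61458 of the 86369 identifiers. The unmatched rows took 1.27% to 1.65% of counts. Genes were filtered with filterByExpr (minimum count 10, 13840 kept), scaled by TMM and tested with edgeR 4.0.16 (R 4.3.3, limma 3.58.1) by the quasi-likelihood test with batch and siRNA as terms, with Benjamini-Hochberg adjustment over all tested genes and a threshold of 0.05. An interaction term tested the siRNA effect between batches. DESeq2 1.42.0 was an alternative, as were other scalings, other filters, each batch alone, no batch term and leaving out each library. In a further one, called copies summed, rows of related genes or pseudogenes were added to some members. The fits were tested on simulated data. Same-numbered libraries deviated together from their group means (correlations 0.39, 0.38, 0.45 and 0.36). Pairs of the same batch with different numbers had 0.38 and 0.50 in batch 1 and 0.33 and 0.14 in batch 2. Pairs from different batches had negative correlations throughout. Pairing by number within a batch was not tested.

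The members, the role groups and the further lists were chosen with earlier results of these data known. All 33 members are named. Values in every library are given for members beyond siCtrl within both batches and for the largest fitted change in each role group. They are also given for OSGIN1, GCLC, GCLM and HAMP, picked for their batch differences or unadjusted p. Of the further lists, called genes and the gene with the smallest p in each list are named.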

Additional observations from a re-analysis of the deposited data

Results flagged for a closer look

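In 64 groups of 4 libraries (31 tested members and NAT10, in siCtrl and siNAT10) a single library stood apart from the other 3 in 6 cases, and chance alone flags about 1 in 20, or 3.2 of them. The gap to the nearest library, as a share of the group's range, exceeded Dixon's 95% critical value in each. NFE2L2 had 65.5 CPM in siCtrl replicate 4, against 47.7 to 49.5 CPM in the other siCtrl libraries (share 0.902). GCLM had 84.5 CPM in siNAT10 replicate 4, against 50.0 to 54.1 CPM (share 0.881). PGD had 98.7 CPM in siNAT10 replicate 2, against 80.2 to 81.3 CPM (share 0.938), and FTL had 247 CPM in the same library, against 181 to 191 CPM (share 0.845). TKT had 328 CPM in siCtrl replicate 3, against 217 to 236 CPM (share 0.833). TFRC had 323 CPM in siNAT10 replicate 1, against 285 to 292 CPM (share 0.831). These values were not removed from any fit other than those that leave out 1 library. Batch differences are within the groups examined, and their part in these gaps was not tested.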

How the results depend on the processing

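SRXN1 and ABCC1 are at or near 0 counts and were not tested in the main fit. SQSTM1 was low too, at 8 to 51 counts, and its interval left a difference of 1.5-fold in either direction possible. The outermost annotated 3′ end of SRXN1 is overlapped on the same strand by a further protein-coding gene, whose row is also at 0. Why these rows are so low, and the part of that overlap, was not tested. The batch could not be told apart from whatever was done separately in it. Of 1142 values of single genes under an alternative, 988 kept direction and side of the threshold, 109 no longer passed, 14 newly passed and 31 changed sign.

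Between the siRNAs the 315 genes called became 15 without the batch term, 567 with DESeq2, 595 with no filter on low counts, 173 in batch 1 alone and 0 in batch 2 alone (946 at an unadjusted p under 0.05), and 75 to 286 when 1 library was left out. Members called were 1 in batch 1 alone (HAMP) and 0 to 1 with a library left out (GCLM). The further pathway genes called were 1 without the batch term, 4 in batch 1 alone, 0 in batch 2 alone and 2 to 9 with a library left out. NAT10 in batch 2 alone had a log2 difference of -1.58 (adjusted p = 0.086). Between batches the members called ranged from 8 to 16 with a library left out. Interaction calls were 1 gene with DESeq2, 15 genes and 1 member (HAMP) with no filter, and 0 to 2 genes with a library left out. The cause was not tested.

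Fitted with replicate number as a block, edgeR called 454 genes and 0 members, and no call named here changed. Fits in which a member's sign turned between the siRNAs were, in batch 2 alone, AKR1B10 -0.066, OSGIN1 -0.038, TXNRD1 -0.035, TKT -0.093, HAMP -0.47, SQSTM1 0.24 and GPX4 0.027. In batch 1 alone they were KEAP1 -0.014, GCLC 0.016 and GPX2 -0.0016, and with copies summed AKR1C1 -0.050. With a library left out the ranges spanned 0 for NFE2L2 (-0.0082 to 0.16), KEAP1 (-0.014 to 0.16), SQSTM1 (-0.38 to 0.23), AKR1B10 (-0.038 to 0.19), AKR1C1 (-0.015 to 0.10), GPX2 (-0.013 to 0.063), GPX4 (-0.19 to 0.0016) and HAMP (-0.11 to 0.45). Between batches the sign turned for NQO1 with library size alone (-0.0071) and with no filter (-0.014), and with a library left out for NQO1 (-0.034 to 0.050), TKT (-0.0066 to 0.20) and TALDO1 (-0.080 to 0.0083). None of these values passed the test.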
